A study of Mus musculus with 2 samples.

Results

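The genes described here are 10 lysosomal proteases and protease inhibitors of 32285 genes counted: the cathepsins *Ctsb*, *Ctsc*, *Ctsd*, *Ctsk*, *Ctsl*, *Ctss* and *Ctsz*, the asparaginyl endopeptidase *Lgmn* (legumain), and the cystatins *Cst3* and *Cstb*. They were listed by name, with earlier results of these data known, and the rule that set the classes of cells did not use their levels. All 10 were detected in both libraries and passed the minimum of 10 unique molecular identifiers (UMIs) in every group of cells compared. The data are droplet single-cell transcriptomes of alveolar macrophages (AMs) of C57BL/6 mice, sorted from the lung as CD45+ autofluorescent cells at an age of 10 weeks. The control library came from mice given vehicle in the lung and the tumor library from mice with Lewis lung carcinoma (LLC, a line derived from the same strain) inoculated into the left lung. There was 1 library per condition, the number of mice behind each was not given in the labels, and library and condition cannot be told apart. The study told AMs from tumor-associated macrophages of the same CD45+ autofluorescent gate by Siglec-F, which the latter lack. Whether Siglec-F also gated the cells of these libraries was not given in the sources used here.

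Cathepsins are proteases of the endosome and lysosome. They are made as inactive precursors, sorted to the lysosome mainly through mannose 6-phosphate receptors, and activated there by low pH and by one another. In macrophages they degrade engulfed proteins, which in the alveolus include surfactant proteins, and some are secreted and cut extracellular matrix. Cystatins bind cysteine cathepsins tightly and block them, and do so outside the lysosome: cystatin C, the product of *Cst3*, is secreted, whereas cystatin B, the product of *Cstb*, is mainly cytosolic.

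Barcodes with at least 500 detected genes and at most 10% mitochondrial UMIs were kept, which left 6185 control cells with 64850143 UMIs (median 10370 per cell) and 7666 tumor cells with 68801889 UMIs (median 8264). Cells in which *Apoe* and *S100a6* together reached 1000 UMIs per 1000000 UMIs of the cell (CPM) were called Apoe S100a6 cells, and were split at 1000 CPM of *Cd63*, a tetraspanin of late endosomes and lysosomes, into Cd63-high and Cd63-low cells. All remaining kept cells are called other cells. The tumor library held 857 Cd63-high, 1244 Cd63-low and 5565 other cells, and the control library 20, 118 and 6047. Because the sum was used, either gene alone could bring a cell into the Apoe S100a6 classes. *Apoe* was detected in 83.9% of Cd63-high and 67.5% of Cd63-low tumor cells, and in 60% and 54.2% in control. *S100a6* was detected in 95.9% and 93.9% in tumor, and in 90% and 72.9% in control. The limits cut through continuous ranges: 664 tumor cells lay between 800 and 1250 CPM of *Apoe* and *S100a6*, and 512 of the 2101 tumor Apoe S100a6 cells lay between 800 and 1250 CPM of *Cd63*. All 15 AM markers were detected in each class of both libraries, but their summed level was 19064, 18748 and 24371 CPM in Cd63-high, Cd63-low and other tumor cells, in which *Chil3* alone made up 7355, 8806 and 11589. The members did not move together: the scavenger receptor *Marco* stood at 18.4, 42.9 and 285 CPM in the same order, *Siglecf* at 52.5, 69.3 and 120.0, the fatty acid carrier *Fabp4* at 407, 163 and 414, the tetraspanin *Cd9* at 3490, 2754 and 3315, and *Fabp5* at 3789, 1415 and 1388. The summed level of 10 markers of monocyte-derived macrophages was 1034, 741 and 472 CPM in the same order, and each of the 10 was detected in each of these 3 classes. *Cd14* alone made up 552, 497 and 308 CPM of it. The complement gene *C1qa* was at 54.7, 3.74 and 1.39 CPM, but *Fcgr4* was at 113, 86.6 and 114, and *Ccr2* and *Ly6c2* were highest in Cd63-low cells, at 8.29, 20.9 and 6.56 CPM and at 1.60, 5.97 and 0.778 CPM. The 5 fibroblast markers summed to 95.9, 99.1 and 2.33 CPM, with *Col1a1* and *Col1a2* at 0 in Cd63-high cells. The part of these cells or RNAs in the differences between classes was not tested. As a direct measurement, the Cd63-high comparison is also given without any cell that held a UMI of a complement C1q gene or of a fibroblast marker.

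The level of a gene in a group is its CPM after the counts of the group's cells were added up. Parentheses hold 95% intervals, which are exact Poisson limits for levels and exact conditional binomial limits for ratios, and which cover counting error only. Cells are not replicates, so no test was run, and genes are named as higher or lower by a fixed size, a log2 ratio of 1.5-fold. In this 3′ chemistry 1 UMI stands for 1 transcript molecule whatever its length, so that levels of different genes can be set side by side, apart from differences in capture.

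The aspartic protease *Ctsd* was the most abundant of the 10 genes in both libraries, followed by *Ctss*, the cysteine cathepsin that trims the invariant chain of MHC class II. The control and tumor levels of *Ctsd* were 5285 (5267 to 5303) and 7983 CPM (7962 to 8004), and those of *Ctss* 2392 (2380 to 2404) and 4054 (4039 to 4070). In control, *Ctsb* at 887 CPM and the carboxypeptidase *Ctsz* at 882 came next with overlapping intervals, followed by *Cst3* at 736, *Cstb* at 662, *Ctsc* at 606, *Ctsk* at 512, *Ctsl* at 264 and *Lgmn* at 216. In tumor, *Ctsb* was next at 1329 CPM, before *Ctsz* at 961, and *Cstb* at 815 was above *Cst3* at 727. *Ctsc* at 673, *Ctsk* at 645, *Ctsl* at 417 and *Lgmn* at 338 CPM kept their order. Together the 10 genes made up 1.24% of all UMIs in control and 1.79% in tumor. Among tumor cells they made up 2.78% in Cd63-high, 1.70% in Cd63-low and 1.61% in other cells.

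**Figure D1:**
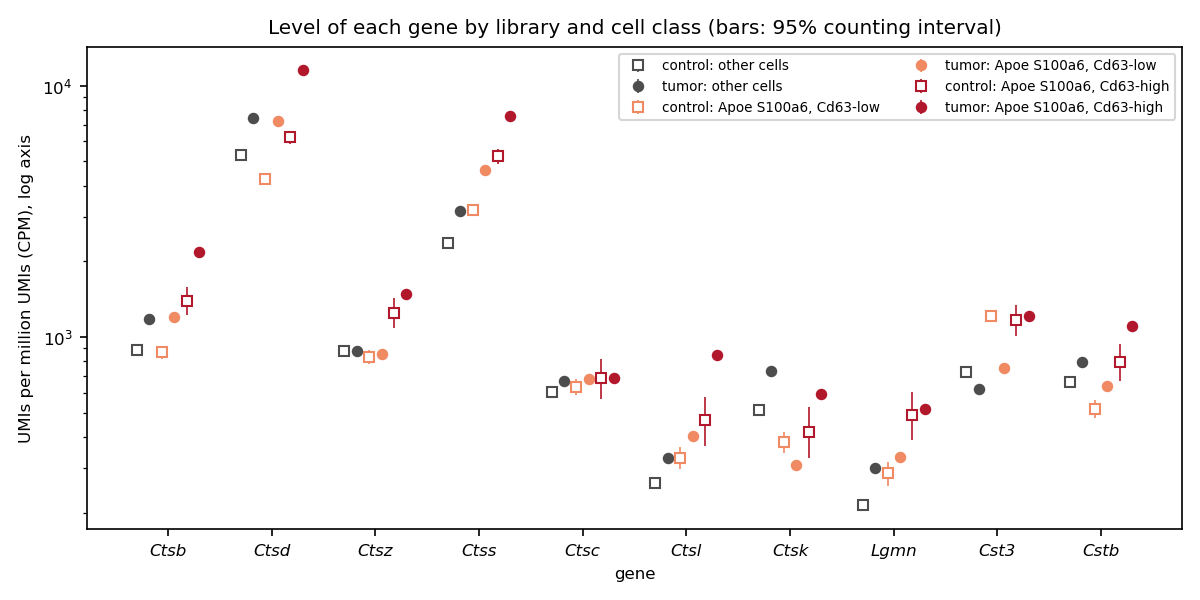
Level of each of the 10 genes (CPM, log axis) in the 3 cell classes of both libraries. Filled circles are tumor and open squares control, with bars for the 95% counting interval. *Ctsd* reached 11589 CPM and *Ctss* 7597 in tumor Cd63-high cells, whereas *Ctsc* lay between 606 and 684 CPM in all 6 groups.

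To ask how the genes differed between tumor-bearing and control lungs, all kept cells of the libraries were compared. *Ctss*, *Ctsl*, *Lgmn* and *Ctsd* were at least 1.5-fold higher in tumor and none of the 10 was 1.5-fold lower. Of the 12927 genes that reached 10 UMIs in both libraries, 8.01% were higher by this measure and 12% lower, and of those at 100 CPM or over in the higher library 5.74% and 2.79%. The log2 ratio was 0.76 (0.75 to 0.77) for *Ctss*, 0.66 (0.63 to 0.68) for *Ctsl*, which takes part in the final breakdown of proteins in the lysosome, 0.65 (0.62 to 0.68) for *Lgmn*, which cleaves after asparagine and processes several cathepsins, and 0.60 (0.59 to 0.60) for *Ctsd*. *Ctsb*, another broadly expressed cysteine cathepsin, fell just short of the limit at 0.58 (0.57 to 0.60). *Ctsk*, the collagen-degrading cathepsin best known from osteoclasts, had a log2 ratio of 0.33, *Cstb* 0.30, *Ctsc*, the activator of granule serine proteases, 0.15, *Ctsz* 0.12 and *Cst3* −0.02 (−0.04 to 0.00). The median over the 10 genes was 0.46, against −0.07 over all genes. The count of 4 was close to the limit for *Ctsd*, *Ctsl* and *Lgmn*: with the mean of per-cell CPM only *Ctss* was past 1.5-fold, at a log2 ratio of 0.64. With cells thinned to the same depth, and also without cells that held a C1q or fibroblast UMI, *Ctss* and *Lgmn* were past it. *Ctsl* stood at 0.56 in both and *Ctsd* at 0.56 and 0.57. The shares of all genes above are for summed UMIs of all kept cells, and not for these alternatives.

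The libraries differed in the share of Apoe S100a6 cells, at 27.4% of tumor and 2.23% of control cells, and other cells were therefore also compared alone. Among them, none of the 10 genes was 1.5-fold higher or lower in tumor, where 7.01% of 12564 genes were higher and 8.8% lower. Their median log2 ratio was 0.37, with *Ctsk* at 0.51 (0.49 to 0.54), *Lgmn* at 0.50 (0.47 to 0.53), *Ctsd* at 0.48 (0.47 to 0.49), *Ctss* at 0.42 (0.41 to 0.43) and *Ctsb* at 0.41 (0.40 to 0.43). *Cst3* was the single gene whose interval lay wholly below 0, at −0.23 (−0.25 to −0.21), from 726 CPM in control to 619 in tumor. *Ctsk* thus was the gene with the highest ratio among other cells, while it was sixth of 10 over all cells.

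Next, the Cd63-high cells of the tumor library were compared with other cells of the same library. *Ctsl*, *Ctss*, *Cst3*, *Ctsb*, *Lgmn*, *Ctsz* and *Ctsd* were at least 1.5-fold higher, and none of the 10 was 1.5-fold lower. Of 10718 genes, 7.37% were higher and 13.5% lower by this measure, and of 1754 genes at 100 CPM or over in the higher group 5.64% and 9.58%. The median log2 ratio was 0.77 over the 10 genes and −0.19 over all genes, so that ratios taken relative to all genes are larger by 0.19. Under that scaling 8 genes were past the limit, but the shares of all genes above were taken without that scaling. With *Cd63* split at 500 CPM 4 genes were past the limit, and *Ctsz* at 0.52 and *Ctsd* at 0.45 were not. No share of all genes was taken for that split.

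Of the cysteine cathepsins, *Ctsl* showed the largest ratio with all cells of these classes, though not in the subsets by depth and markers below. Its level was 848 CPM (830 to 866) in Cd63-high, 404 (393 to 416) in Cd63-low and 329 (324 to 334) in other tumor cells, which gave a log2 ratio of Cd63-high over other cells of 1.37 (1.33 to 1.40). *Ctss* was at 7597, 4598 and 3180 CPM in the same classes, with a log2 ratio of 1.26 (1.24 to 1.27). It stepped up at each class, and was the only cathepsin with a log2 ratio above 0.5 in Cd63-low cells, at 0.53 (0.52 to 0.55).

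*Ctsb* was at 2185, 1196 and 1181 CPM, or 0.89 (0.87 to 0.91) as a log2 ratio, and *Ctsz* at 1485, 852 and 876, a log2 ratio of 0.76 (0.73 to 0.79). The aspartic protease *Ctsd* was at 11589, 7238 and 7400 CPM, or 0.65 (0.64 to 0.66) as a log2 ratio, and *Lgmn* at 515, 334 and 302 with 0.77 (0.72 to 0.82). For *Ctsb*, *Ctsz* and *Ctsd* the Cd63-low and other cells lay within 3% of each other, and the Cd63-high cells stood apart from both.

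*Ctsc* and *Ctsk* went their own ways. *Ctsc* was at 684, 678 and 670 CPM in Cd63-high, Cd63-low and other cells, with a log2 ratio of 0.03 (−0.01 to 0.07) for Cd63-high and 0.02 (−0.02 to 0.05) for Cd63-low over other cells. *Ctsk* was at 592, 311 and 735 CPM, highest in other cells. Its log2 ratio was −0.31 (−0.35 to −0.27) in Cd63-high and −1.24 (−1.29 to −1.19) in Cd63-low over other cells. It was the single gene of the 10 past 1.5-fold between Cd63-low and other cells, where 6.9% of 11092 genes were higher and 5.17% lower. In 4 alternatives *Ctss* was past the limit as well, among them cells thinned to the same depth and cells with 8000 to 12000 UMIs. Its log2 ratios were 0.60 and 0.62 in these, for which no shares of all genes were taken. *Ctsk* and *Ctss* are neighbours on the same strand of chromosome 3, at chr3:95499256-95509362 and chr3:95526786-95556403 (GRCm38, GENCODE vM21), with 17423 bases between them. In Cd63-low over other cells *Ctsk* was lower by more than 1.5-fold, and *Ctss* was higher by less than 1.5-fold, at a log2 ratio of 0.53.

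The inhibitors differed from each other. The secreted inhibitor *Cst3* was at 1209 CPM (1188 to 1231) in Cd63-high, 753 (737 to 769) in Cd63-low and 619 (612 to 627) in other cells, with log2 ratios over other cells of 0.97 and 0.28 (0.25 to 0.32). The cytosolic inhibitor *Cstb* was at 1107, 639 and 796 CPM, with 0.48 (0.45 to 0.51) and −0.32 (−0.35 to −0.28). *Cstb* was thus lowest in the Cd63-low cells, as *Ctsk* was.

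**Figure D2:**
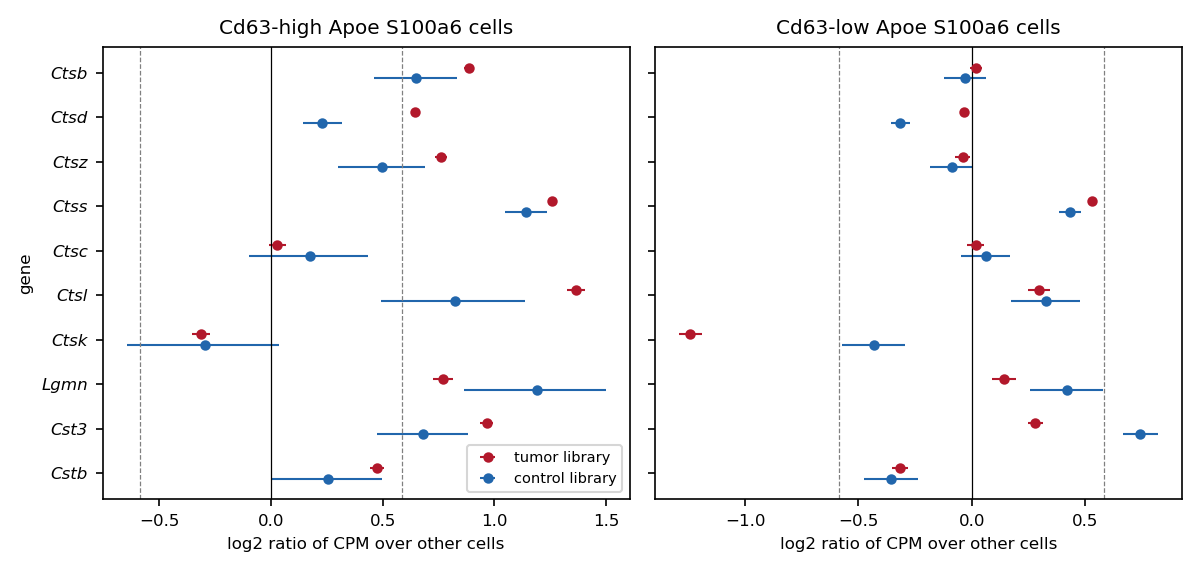
Log2 ratio of the level in Cd63-high (left) and Cd63-low (right) Apoe S100a6 cells over other cells of the same library, in tumor (red) and control (blue). Bars are 95% counting intervals and dashed lines mark 1.5-fold. *Ctsl* and *Ctss* lie furthest right among tumor Cd63-high cells at 1.37 and 1.26, and *Ctsk* furthest left among tumor Cd63-low cells at −1.24.

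The Cd63-high cells were also deeper, with a median of 11163 UMIs against 8311.5 in Cd63-low and 7956 in other tumor cells. Among cells with 8000 to 12000 UMIs 6 genes were at least 1.5-fold higher, with log2 ratios of 1.14 for *Ctsl* and 1.23 for *Ctss*. *Ctsd* fell just short there at 0.58, and *Ctsk* was past the limit in the other direction at −0.60. In the 715 Cd63-high and 5308 other cells that held no C1q or fibroblast UMI, 7 genes were at least 1.5-fold higher, with 1.19 for *Ctsl*, 1.21 for *Ctss*, 0.84 for *Cst3* and 0.76 for *Ctsb*. The shares of all genes given above are for the full classes and not for either subset. In the Cd63-high class the complement gene *C1qb* was at 113 CPM and the fibroblast gene *Dcn* at 49.0, against 2.46 and 0.631 in other cells.

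Within the Apoe S100a6 cells of the tumor library, 9 of the 10 genes were at least 1.5-fold higher in Cd63-high than in Cd63-low cells, where 3.27% of 10644 genes were higher and 9.08% lower, and 3.61% and 3.14% of the 1688 genes at 100 CPM or over. *Ctsl* had the largest log2 ratio at 1.07 (1.02 to 1.12), followed by *Ctsk* at 0.93 (0.87 to 0.99), *Ctsb* at 0.87, *Ctsz* at 0.80, *Cstb* at 0.79, *Ctss* at 0.72, *Cst3* and *Ctsd* at 0.68 and *Lgmn* at 0.63. The exception was *Ctsc* at 0.01 (−0.04 to 0.06). The classes differed in more than *Cd63*: *Apoe* was at 3030 CPM in Cd63-high and 730 in Cd63-low cells, *S100a6* at 1448 and 1645, and *C1qa* at 54.7 and 3.74, and the part of these differences in the ratios was not tested. *Ctsk* was thus higher in Cd63-high than in Cd63-low cells although its level was lower in both than in other cells, but the median cell was at 165 and 130 CPM in these classes, and with *Cd63* split at 2000 CPM its log2 ratio of Cd63-high over other cells turned to 0.08.

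To separate the 2 measures that define the classes, other cells were split at the same *Cd63* limit, a comparison added after the data had been seen. Other cells at or over the limit were also deeper, with median UMIs of 12381 against 10264 in control and 9625 against 7681 in tumor. In control, 538 other cells with *Cd63* at 1000 CPM or over were compared with 5509 under it. *Ctsk* was at 1239 and 433 CPM, or 1.52 as a log2 ratio, *Ctsl* and *Cstb* each had 0.96, *Ctsz* 0.80, *Ctsb* 0.78, *Lgmn* 0.74 and *Ctsd* 0.69. *Cst3* at 0.29, *Ctss* at 0.21 and *Ctsc* at −0.15 were within 1.5-fold. In this comparison 4.28% of all genes were higher and 7.69% lower. In tumor, with 1061 and 4504 other cells, *Ctsk* again had the largest log2 ratio at 1.14, followed by *Cstb* at 0.71, *Ctsl* at 0.69, *Ctsz* at 0.64 and *Ctsb* at 0.59, all past 1.5-fold, where 2.71% of all genes were higher and 5.72% lower. *Ctsd* at 0.54, *Ctss* and *Cst3* at 0.49, *Lgmn* at 0.44 and *Ctsc* at 0.10 were within 1.5-fold there. *Ctsd* and *Lgmn* were thus past the limit in the control library alone, and whether the libraries differ in this was not tested.

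Cells of like *Cd63* level could then be set against each other, also a comparison added after the data had been seen. Among tumor cells with *Cd63* at 1000 CPM or over, *Ctss* was at 7597 CPM in the 857 Apoe S100a6 cells and 4100 in the 1061 other cells, a log2 ratio of 0.89 (0.87 to 0.91). *Ctsl* was at 848 and 466, a log2 ratio of 0.86 (0.81 to 0.91), and *Cst3* at 1209 and 795, a log2 ratio of 0.60 (0.56 to 0.64). These 3 were at least 1.5-fold higher, where 5.39% of 10457 genes were higher and 7.74% lower. *Ctsk* was at 592 and 1273 CPM, or −1.11 (−1.15 to −1.06) as a log2 ratio, the one gene of the 10 that was 1.5-fold lower. *Ctsb* at 0.46, *Lgmn* at 0.44, *Ctsz* at 0.29 and *Ctsd* at 0.25 were higher by less than 1.5-fold, and *Cstb* at −0.04 and *Ctsc* at −0.05 were close to 0. The *Cd63* level itself was not fully matched, at 1699 CPM in Apoe S100a6 cells and 1483 in other cells.

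Among tumor cells under the *Cd63* limit *Ctss* again had the highest and *Ctsk* the lowest ratio of the 10 genes, while *Cd63* itself was at 559 CPM in Apoe S100a6 and 439 in other cells, a log2 ratio of 0.35. *Ctss* had a log2 ratio of 0.66 (0.64 to 0.68) in Apoe S100a6 over other cells, *Ctsl* 0.49, *Cst3* 0.41 and *Ctsk* −0.89 (−0.94 to −0.84). In this comparison 6.73% of 11069 genes were 1.5-fold higher and 6.09% lower. In control, with 20 and 538 cells at or over the limit, *Ctss* was at 5232 and 2705 CPM, or 0.95 (0.85 to 1.05) as a log2 ratio, and *Ctsk* at 419 and 1239, a log2 ratio of −1.56 (−1.92 to −1.23). *Ctsl* was at 465 and 466 CPM there, a log2 ratio of −0.00 (−0.34 to 0.31). Of 2774 genes, 13.9% were higher and 5.08% lower in that comparison of 20 cells, and 7.97% and 6.88% of 1657 genes at 100 CPM or over. Under the limit, with 118 and 5509 control cells, *Cst3* was the one gene past 1.5-fold at 0.78 (0.70 to 0.85), in a class with raised markers of other cell types and a median cell at 804 CPM against a class level of 1217, *Ctss* had 0.46 and *Ctsk* −0.18, where 5.88% of 7862 genes were higher and 3.63% lower.

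Levels were also taken over finer ranges of *Cd63*, without the limit of 1000 CPM. From tumor Apoe S100a6 cells under 250 CPM of *Cd63* (243 cells) to those at 2000 or over (174 cells), *Ctss* went from 3653 to 9235 CPM, *Ctsd* from 5822 to 13855, *Ctsl* from 297 to 1256, *Ctsb* from 950 to 2960, *Cst3* from 623 to 1603 and *Ctsk* from 201 to 775. *Ctsc* was at 638 CPM in the first range and 624 in the last. In control other cells, from 3025 cells under 250 CPM to 49 cells at 2000 or over, *Ctsk* went from 316 to 2588 CPM and *Ctsd* from 4362 to 10332, while *Ctss* went from 2130 to 2744. In tumor other cells, from 1572 cells under 250 CPM to 119 at 2000 or over, *Ctss* went from 2394 to 4900 CPM, *Ctsk* from 403 to 1892 and *Ctsd* from 5601 to 12112. Over all tumor cells ordered by *Apoe* and *S100a6* together, from under 250 (4025 cells) to 4000 CPM or over (297 cells), *Ctss* went from 2797 to 8378 CPM, *Ctsl* from 315 to 1125 and *Cst3* from 591 to 1454. *Ctsk* was at 809 CPM in the first of these ranges, 419 between 1250 and 2000 CPM, and 546 in the last.

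**Figure D3:**
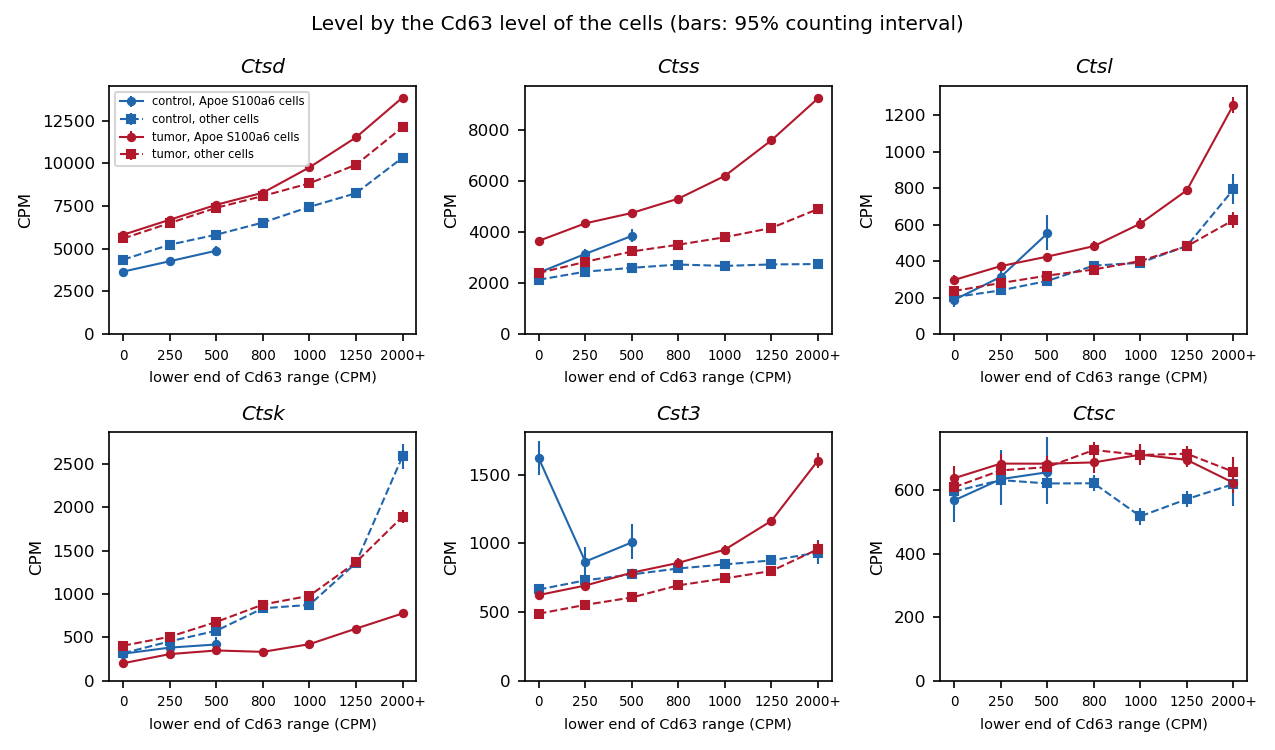
Level (CPM, linear axis from 0) of 6 of the genes in cells grouped by *Cd63* level, for Apoe S100a6 cells (solid) and other cells (dashed) of tumor (red) and control (blue). Bars are 95% counting intervals and ranges with fewer than 20 cells are not drawn. *Ctsd* is higher in each higher *Cd63* range in all 4 sets, *Ctss* is highest in tumor Apoe S100a6 cells (9235 CPM in the last range), *Ctsk* is highest in other cells (2588 CPM in control) and *Ctsc* stays between 518 and 727 CPM.

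The control library held few Apoe S100a6 cells, and its values are given as the background of the same measurement without tumor. In its 20 Cd63-high cells *Lgmn* was at 488 CPM (390 to 604), *Ctss* at 5232, *Ctsl* at 465, *Cst3* at 1166 and *Ctsb* at 1390 (1220 to 1576). All 5 were at least 1.5-fold higher than in control other cells, where 11.1% of 2774 genes were higher and 6.71% lower. Of 1738 genes at 100 CPM or over in the higher group, 6.5% were higher and 9.49% lower. *Ctsd* at 6220 CPM (5855 to 6601) had a log2 ratio of 0.23 there, against 0.65 in tumor, and *Ctsk* at 419 CPM one of −0.29 (−0.65 to 0.04). Against the control Cd63-low cells, *Lgmn* (0.77), *Ctss* (0.71), *Ctsb* (0.68), *Cstb* (0.61) and *Ctsz* (0.59) were past the limit in log2 ratio. In that comparison 10.4% of 2774 genes were higher and 5.88% lower, and 5.26% and 8.26% of 1731 genes at 100 CPM or over. In the 118 control Cd63-low cells *Cst3* was the one gene past the limit, at 1217 CPM and a log2 ratio of 0.74 (0.67 to 0.82), where 6.05% of 7863 genes were higher and 3.27% lower. This level lay above the upper quartile of the class, 1150 CPM, and the median cell was at 804 CPM, against 655 in control other cells. That class included cells of other types: the 5 neutrophil markers summed to 667 CPM, the 5 endothelial markers to 61.3, the 5 fibroblast markers to 28.4 and the 5 dendritic cell markers to 22.2, against 59.6, 5.96, 0.220 and 4.22 in control other cells, and their part in the *Cst3* value was not tested. Its *Cst3* level was highest, at 1619 CPM, in the 50 cells under 250 CPM of *Cd63*.

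Between the libraries, *Ctsd* was past 1.5-fold in both Apoe S100a6 classes, whereas in other cells its log2 ratio was 0.48, within 1.5-fold. It was at 11589 CPM in tumor and 6220 in control Cd63-high cells, a log2 ratio of 0.90 (0.81 to 0.99). In Cd63-low cells it was at 7238 and 4262, a log2 ratio of 0.76 (0.72 to 0.81). *Ctsl* had a log2 ratio of 0.87 (0.55 to 1.20) and *Ctsb* one of 0.65 (0.47 to 0.84) in Cd63-high cells. With *Ctsd* these 3 were past 1.5-fold in Cd63-high cells, where 6.06% of 2774 genes were higher and 15.2% lower. Of 1661 genes at 100 CPM or over in the higher group, 9.27% were higher and 9.75% lower there. *Lgmn* at 0.08 (−0.23 to 0.40) and *Cst3* at 0.05 (−0.15 to 0.26) had intervals across 0 there. In Cd63-low cells *Ctsd* was higher and *Cst3* lower, the latter at −0.69 (−0.78 to −0.61), where 6.93% of 7854 genes were higher and 10.2% lower. The median cell was closer between the libraries for *Cst3*, at 627 CPM in tumor and 804 in control Cd63-low cells.

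The spread from cell to cell was wide. In tumor Cd63-high cells the quartiles of *Ctsl* were 379 and 1012 CPM with a median of 672, and in other tumor cells 110 and 450 with a median of 250. For *Ctss* the quartiles were 4653 and 9489 in Cd63-high and 1832 and 3769 in other cells, so that the interquartile ranges of these classes did not overlap. For *Ctsk* the lower quartile was 0 in both Apoe S100a6 classes, and the class levels of 592 CPM in Cd63-high and 311 in Cd63-low cells lay above the upper quartiles of 448 and 296.

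**Figure D4:**
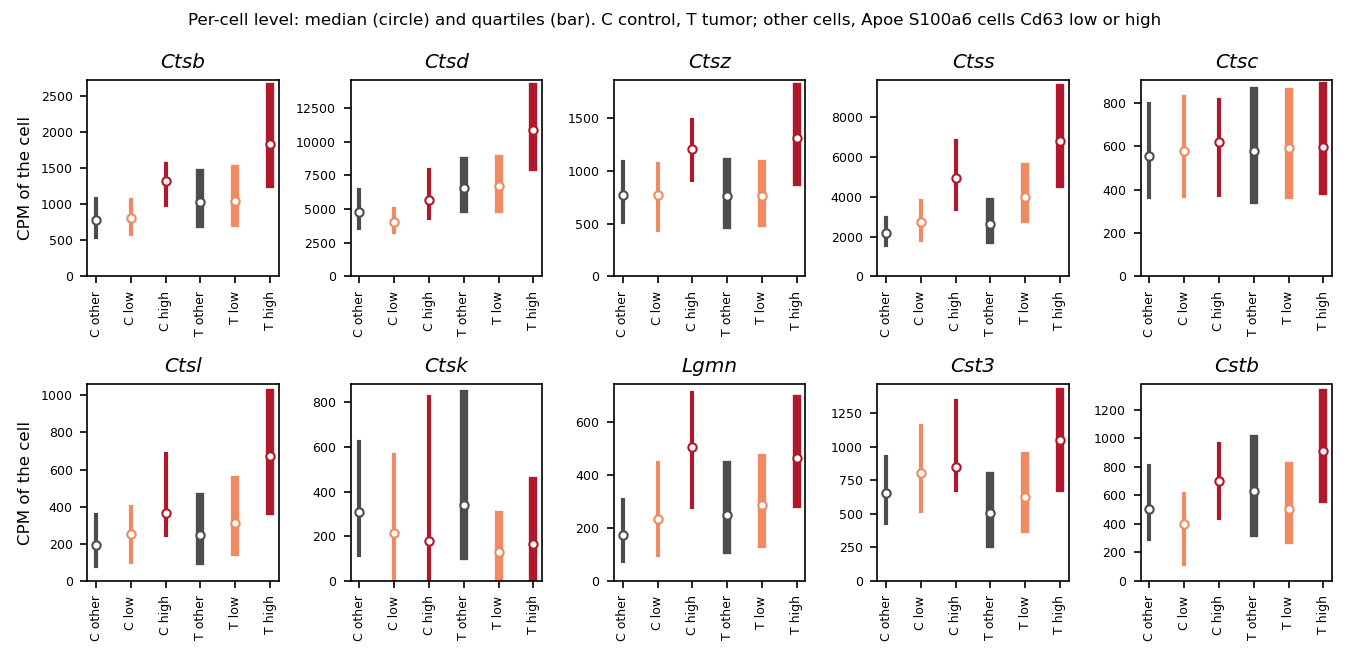
Median (circle) and quartiles (bar) of the per-cell level (CPM, linear axes from 0) of each gene in other, Cd63-low and Cd63-high cells of control (C, thin bars) and tumor (T, thick bars). The Cd63-high tumor bars lie highest for *Ctsd*, *Ctss* and *Ctsl*, the *Ctsc* bars are alike in all 6 groups, and the *Ctsk* bars reach 0 in the Apoe S100a6 classes.

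Shares of cells with a UMI were compared after each cell had been thinned to 3800 UMIs, which left out 595 control and 729 tumor cells. *Ctsl* was detected in 55.4% of 5590 control cells (54.1 to 56.7, exact binomial) and 66.9% of 6937 tumor cells, *Lgmn* in 52.2% and 66.6%, and *Ctsk* in 66.7% and 62.8%. Without thinning the shares were 78.6% and 82.5% for *Ctsl*, 78.5% and 83.8% for *Lgmn* and 83.0% and 76.2% for *Ctsk*. For *Ctsk* the share ran against the level, which was higher in tumor, and no order is read from its share. By tumor class, *Ctsl* was detected in 87.9%, 68.5% and 63.1% of thinned Cd63-high, Cd63-low and other cells, *Lgmn* in 80.8%, 68.9% and 63.8%, and *Ctsk* in 50.4%, 45.2% and 68.8%. In the few thinned cells marked as another type, 10 in control and 13 in tumor, *Ctsk* was detected in 10% and 7.7%, *Lgmn* in 20% and 7.7% and *Ctsl* in 40% and 53.8%. The exact intervals of these shares were wide, 12.2% to 73.8% for *Ctsl* in control and 25.1% to 80.8% in tumor, and the *Ctsl* shares of control cells and of other tumor cells lay inside them. The *Lgmn* share of control cells lay inside its interval of 2.52% to 55.6% as well, whereas that of tumor cells, 66.6%, lay above its interval of 0.195% to 36.0%. *Cst3* was detected in 80% (44.4 to 97.5) and 69.2% (38.6 to 90.9) of the cells marked as another type, and in 90.7% of control and 86.1% of tumor cells. For *Ctsl* and *Cst3* in both libraries and *Lgmn* in control, background RNA could not be told apart from expression by these shares alone.

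Over the same thinned cells, the genes most alike in pattern were *Ctsd* and *Ctss* in tumor (Spearman rho 0.41 over 6937 cells), followed by *Ctsb* with *Ctsd* at 0.39 and *Ctsd* with *Ctsz* at 0.35. In control the closest pairs were *Ctsb* with *Ctsd* at 0.31, *Ctsd* with *Ctsz* at 0.30 and *Ctsd* with *Ctsk* at 0.24. All closest pairs named here include *Ctsd*, the most abundant gene, and the part of abundance in this order was not tested. The least alike pair in tumor was *Ctss* with *Ctsk* at −0.13. That pair was at 0.04 in control, where *Ctsc* with *Cstb* was lowest at −0.07. The median over the 45 pairs was 0.10 in control and 0.15 in tumor. These values describe cells of 1 library each, which share that library and its depth.

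CACGTG is the core of the sequence bound by TFEB and related factors at many lysosomal genes, and was searched in the 250 bases before the annotated starts (RefSeq, GRCm38.p6) as a description shared by some of the genes. CACGTG reads the same on both strands. Of the 10 genes 8 had an entry, with 9 starts in all, and 3 of the 9 held CACGTG, against 6.02% of 32851 starts. All 4 matches found are printed, and they belong to *Ctsd*, *Ctsl* and *Lgmn*. Each is a window of 30 bases, read 5′ to 3′ on the minus strand, which is the strand of all 3 genes, with CACGTG in capitals.
Ctsd, first match: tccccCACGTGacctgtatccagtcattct
Ctsd, second match: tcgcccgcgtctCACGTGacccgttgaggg
Ctsl: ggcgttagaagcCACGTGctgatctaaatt
Lgmn: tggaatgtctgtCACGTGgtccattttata

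The *Ctsd* windows lie at chr7:142388048-142388077 and chr7:142387908-142387937, with the motif beginning 245 and 98 bases before the start. The first is upstream of the GENCODE gene and the second in a 5′ untranslated exon of a longer GENCODE transcript. The *Ctsl* window lies at chr13:64370739-64370768, in such an exon as well, and its motif begins 236 bases before the start. The *Lgmn* window lies at chr12:102439124-102439153, before an internal start and within an intron of the gene, with the motif 49 bases before that start. The longer palindrome TCACGTGA was found at 1 of the 9 starts, against 0.785% of all starts. CACGTG was not found in these windows of *Ctss*, *Ctsc*, *Ctsk*, *Ctsz* and *Cst3*, nor before the upstream start of *Lgmn*. No binding was measured.

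The other genes of the pathway were compared by the same measure. Of 23 lysosomal membrane and proton pump genes, none was 1.5-fold higher or lower in tumor over control, where 8.01% of all genes were higher, and 1, *Cd68*, was higher in Cd63-high over other tumor cells, at 675 and 419 CPM, where 7.37% of all genes were. Of 30 other hydrolases and cofactors, 3 were higher in tumor, a share near that of all genes, among them *Psap*, the precursor of the saposins, at 5731 and 3040 CPM, or 0.91 as a log2 ratio, and the sphingomyelinase *Smpd1*. In Cd63-high over other tumor cells 6 of the 30 were higher, among them *Lyz2* (lysozyme) with a log2 ratio of 0.90 and the cholesterol carrier *Npc2* with 0.74. The medians were 0.06 over the 23 and 0.20 over the 30, against 0.77 over the 10 listed proteases and inhibitors and −0.19 over all genes. Over 4 measured cathepsins outside the list the median was 0.20 as well, and over 3 measured inhibitors outside it −0.19. Of 7 other cathepsins 4 were measured, of which *Ctsh* was higher in Cd63-high cells, at 540 and 295 CPM, and *Ctsf* lower, at 4.99 and 11.1, where 13.5% of all genes were lower. *Ctsf* was also the one of the 4 past the limit in tumor over control, at 9.55 and 15.7 CPM, and in Cd63-low over other cells, at 6.86 and 11.1, lower in both. Of all genes, 12% were lower in the first of these comparisons and 5.17% in the second.

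Of 9 genes for sorting and transcription, *Igf2r*, the mannose 6-phosphate receptor that carries newly made hydrolases to the lysosome, was the one past the limit between the libraries, a count near the 8.01% of all genes that were higher. It was at 1.11 CPM in control (72 UMIs in 61 cells) and 16.6 in tumor (1142 UMIs in 830 cells), a log2 ratio of 3.90 (3.56 to 4.27). In tumor it was at 44.6 CPM in Cd63-high, 19.2 in Cd63-low and 10.1 in other cells. The highest count in 1 cell was 9 UMIs. *Tfec*, a relative of TFEB, was lower in Cd63-high cells, at 78.6 CPM against 130 in other cells and 118 in Cd63-low cells. Of 3 measured protease inhibitors outside the list, *Cst6* was past the limit upward in tumor over control, from 20 to 57 UMIs. It was past it in both Apoe S100a6 classes over other tumor cells as well, always at under 2 CPM. Over all genes 8.01% were higher between the libraries, 7.37% in Cd63-high and 6.9% in Cd63-low over other cells, and 13.5% and 5.17% were lower in these classes. *Serpinb6a* was lower in Cd63-low than in other tumor cells, at 76.5 and 202 CPM, or −1.40 (−1.50 to −1.30) as a log2 ratio, and in Cd63-high cells at −0.89.

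The remaining genes lie at chr14:63122462-63145923 (*Ctsb*), chr2:174427493-174439039 (*Ctsz*), chr7:88278085-88310888 (*Ctsc*), chr2:148871722-148875692 (*Cst3*) and chr10:78425669-78427622 (*Cstb*) in GRCm38 (GENCODE vM21), and the 3 genes with printed windows at chr7:142375911-142388038 (*Ctsd*), chr13:64359337-64370890 (*Ctsl*) and chr12:102394084-102439813 (*Lgmn*). Other gene models overlap some of the 10: *Fdft1* lies on the opposite strand at *Ctsb* (1359 UMIs in control and 2870 in tumor), *Nelfcd* at *Ctsz* (1103 and 1083) and *Gm47123* at *Ctsl* (35 and 31). All 3 had far fewer UMIs than their partners. On the same strand the annotation holds *Gm49369* at *Ctsd* and the processed pseudogenes *Hmgb1-ps5* at *Ctss* and *Gm49230* at *Ctsl*, and on the opposite strand *Gm26522* at *Ctsc*. None of these 4 was matched to a row of the count tables.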

How the data were processed

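AMs sorted from vehicle-control and LLC-bearing mice were profiled with the 10x Genomics 3′ kit, 1 library per condition. The authors deposited raw counts of UMIs for each gene in each barcode, made with Cell Ranger and not normalized. The submitters' processing notes name Cell Ranger 4.0.0, bcl2fastq 2.20 and mm10, and the methods name a later Cell Ranger at default settings. The methods mention hashtags, whose reads played no part here. Gene symbols were matched for 32158 of 32285 identifiers.

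From these counts, barcodes with under 500 genes or over 10% mitochondrial UMIs were left out. Scrublet with an expected 6% called 1 cell in each library, was taken not to have worked, and no doublet was removed; leaving out the highest-scoring cells was an alternative. Altogether 20 control and 19 tumor cells carried markers of another type, and 17 kept barcodes occurred in both libraries. All of these were kept. UMIs were summed per library and class, and ratios were taken between CPM. The rule gave no limit for *Apoe* and *S100a6*, and 1000 CPM for their sum was set here. With 1 library per condition no model was fitted. All 10 genes are reported, as are genes of the other lysosomal lists past 2-fold with at least 20 CPM in the higher group, apart from 1 that is not reported here; *Psap*, *Smpd1*, *Tfec*, *Cd68*, *Ctsh*, *Ctsf*, *Cst6*, *Lyz2* and *Npc2* were named after their values were seen. The genes, lists and comparisons were chosen with earlier results of these data known. The ratios and intervals were tested on simulated data.

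The alternatives changed the barcode filter, doublets, other cell types, scaling, thinning, both limits and, added after the data had been seen, depth, shared barcodes, marked cells and the *Cd63* level of other cells. Python 3.11.15 was used with numpy 2.4.6, scipy 1.17.1, pandas 2.3.3, scanpy 1.11.5 and matplotlib 3.10.9.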

Additional observations from a re-analysis of the deposited data

How the results depend on the processing

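No alternative turned the direction of a ratio past 1.5-fold. The count of genes past 1.5-fold between Cd63-high and Cd63-low tumor cells was 9 and ranged from 6 to 9 over 16 alternatives. Between Cd63-high and other tumor cells it was 7 and stayed within 1.5 times that count in 15 of 17 alternatives, among which cells with 8000 to 12000 UMIs gave 6 higher and 1 lower. It was 4 with *Cd63* split at 500 CPM and 4 (3 higher, 1 lower) against other cells of like *Cd63* level. Between the libraries the count of 4 ranged from 1 to 5 over 11 alternatives, and became 1 with the mean of per-cell CPM, 2 with thinned cells and 2 without cells holding a C1q or fibroblast UMI, where *Ctss* and *Lgmn* remained. Between Cd63-low and other tumor cells the count of 1 became 2 with thinned cells, 3 with *Cd63* split at 2000 CPM, 2 among cells with 8000 to 12000 UMIs and 2 against other cells of like *Cd63* level, and *Ctss* was the higher gene in each of these, joined by *Ctsl* in the second. Among other cells the count of 0 between libraries became 1, *Ctsk*, with *Apoe* and *S100a6* at 500 CPM and 1 among cells with 8000 to 12000 UMIs. The cause was not tested, apart from the change of cells each alternative makes. Of the alternatives, only the *Cd63* level of other cells has shares of all genes beside its counts. The log2 ratio of *Ctsk* in Cd63-high over other cells, −0.31, was 0.08 with *Cd63* split at 2000 CPM and −0.60 among cells with 8000 to 12000 UMIs, and that of *Cst3* between the libraries, −0.02, was 0.05 when divided by the median ratio of all genes. No paired analysis was possible because each condition has 1 library and no result comes from a test. The control Cd63-high class rests on 20 cells, whose median depth was 9304 UMIs.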
